A study of Sus scrofa with 4 samples.

Results

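The 40 genes described here encode the carriers and enzymes through which a cell takes up glucose, breaks it down to pyruvate and lactate, passes pyruvate to the mitochondria and diverts glucose into the pentose phosphate pathway. They were picked out by gene symbol, from a list drawn up with earlier results of these data known. All 40 were found among the 29884 rows of the count table. All 40 also passed the filter on low counts, which left 14352 rows in all. By role there were 2 glucose carriers, 13 genes of upper glycolysis, 7 of lower glycolysis, 5 of lactate formation and monocarboxylate transport, 8 of pyruvate entry into mitochondria, 4 of the pentose phosphate pathway and NADPH supply, and TXNIP, an arrestin-like protein that lowers glucose uptake.

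RNA was sequenced from porcine ovarian granulosa cells, which form the inner wall of the follicle and nurse the oocyte, taken from antral follicles. Some cells of each follicle went to flow cytometry, which gave the proportion in G0/G1, when a cell rests or has not yet begun to copy its DNA. The others were sequenced as 2 libraries of high and 2 of low G0/G1 proportion. The labels name no treatment, oxygen level, breed, age or animal for any library and do not say whether follicles were pooled, so p-values reflect the scatter among these 4 libraries, part or all of which could be technical.

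Glycolysis turns glucose into pyruvate in a chain of reactions in the cytosol. Hexokinase and phosphofructokinase are its main points of control, and lactate dehydrogenase reduces pyruvate to lactate so that the chain can go on without oxygen. Granulosa cells are known for active glycolysis, and they supply pyruvate and lactate to the oocyte, which uses glucose poorly. Many glycolytic genes are known targets of the hypoxia-inducible factor HIF-1, and the pentose phosphate pathway branches off glucose 6-phosphate to make NADPH and ribose.

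Library totals ran from 27442850 to 32674921 counts. Levels are in CPM, counts relative to the scaled library size, and they are not corrected for gene length, so they compare libraries and not genes. Of 10 granulosa markers, 9 were detected at levels from 9.76 CPM for INHBA in high replicate 2 to 15730 CPM for SERPINE2 in high replicate 1, and CYP19A1 had 0 counts in all 4 libraries while its paralog CYP19A3 had 1142 to 3986 CPM. The groups overlapped in 0 of these 9 markers, with 4 higher and 5 lower in both high libraries. Over all genes tested, 26.8% lay higher and 29.8% lower in both high libraries. FSHR, the receptor for follicle-stimulating hormone, had 22.5 and 26.1 CPM in high against 81.6 and 85.9 in low libraries. Low replicate 2 stood apart in markers of other cells. The summed level of the 7 fibroblast and smooth muscle markers was 1117 CPM there, against 44.0 in low replicate 1 and 88.6 and 117 in the high libraries, with 5 of the 7 highest there. The 4 theca markers summed to 1029 and 309 CPM in high against 226 and 446 in low libraries, most of it LHCGR in both high libraries and low replicate 1. LHCGR, which maturing granulosa cells also express, had 1001 and 277 CPM in high against 148 and 95.5 in low libraries. INSL3 lay the other way, at 17.6 and 30.0 against 75.4 and 260 CPM. CYP17A1 stood at 51.5 CPM in low replicate 2 and at 0.126 to 1.02 elsewhere, and STAR was also highest there, at 39.5 CPM. The 5 endothelial markers summed to 13.0 and 40.4 CPM in high against 6.74 and 49.1 in low libraries. Most of the sum in high replicate 2 was KDR, at 29.45 CPM. CDH5 was highest in low replicate 2, at 1.04 and 1.16 CPM in high against 0.126 and 6.21 in low libraries. So was VWF, at 6.64 and 4.32 against 1.16 and 22.0 CPM. The 6 leukocyte markers summed to 1.38 and 3.16 CPM in high against 0.627 and 2.71 in low libraries. Of the erythroid markers, SLC4A1 and AHSP were at 0 in all 4 libraries, but HBB was at 27.1 and 19.3 CPM in high against 9.13 and 15.3 in low libraries, and ALAS2 at 0.403 and 0.632 against 0.126 and 0.382. The part of any of these markers in the results below was not tested. With low replicate 2 left out, the median log2 fold change of the 40 genes was -0.89, against -0.96 with all libraries. It was -0.71 without low replicate 1, -0.72 without high replicate 2 and -1.06 without high replicate 1.

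Most genes of the pathway had lower levels in high than in low G0/G1 cells. Of the 40, 30 had a negative and 10 a positive log2 fold change of high against low, against 50.6% negative and 49.4% positive over all 14352 genes tested. The median was -0.96, against -0.01 over all genes. In 25 of 40 genes (62.5%) both high libraries lay below both low libraries, and in 6 (15%) both lay above. Over all genes tested these shares were 29.8% and 26.8%. A change of 2-fold or more was seen in 17 genes downwards (42.5%) and in 3 upwards (7.5%), against 11.0% and 11.3% of all genes.

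None of these differences passed the threshold after adjustment. By edgeR's quasi-likelihood test, 0 of the 40 genes and 0% of all genes were called in either direction at an adjusted p under 0.05, with 0.125 as the lowest adjusted p. Before adjustment, p was under 0.05 in 23 of the 40 genes that were lower (57.5%) and 5 that were higher (12.5%), against 10.8% and 9.92% of all genes. DESeq2, run as an alternative, called 18 lower and 3 higher, against 5.03% and 5.36% of all genes. When low replicate 1 was left out, DESeq2 called 3 lower (LDHA, PFKP and SLC16A3, against 0.865% of all genes) and 2 higher (PDK4 and SLC16A7, against 2.19%). It called 8 lower and 1 higher when low replicate 2 was left out (1.17% and 1.54% of all genes), and 12 and 1 when high replicate 2 was (3.63% and 2.97%). Leaving out high replicate 1 gave 18 and 3 (9.47% and 7.10%), and edgeR then called 6 lower and 0 higher (3.92% and 2.41%).

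**Figure D1:**
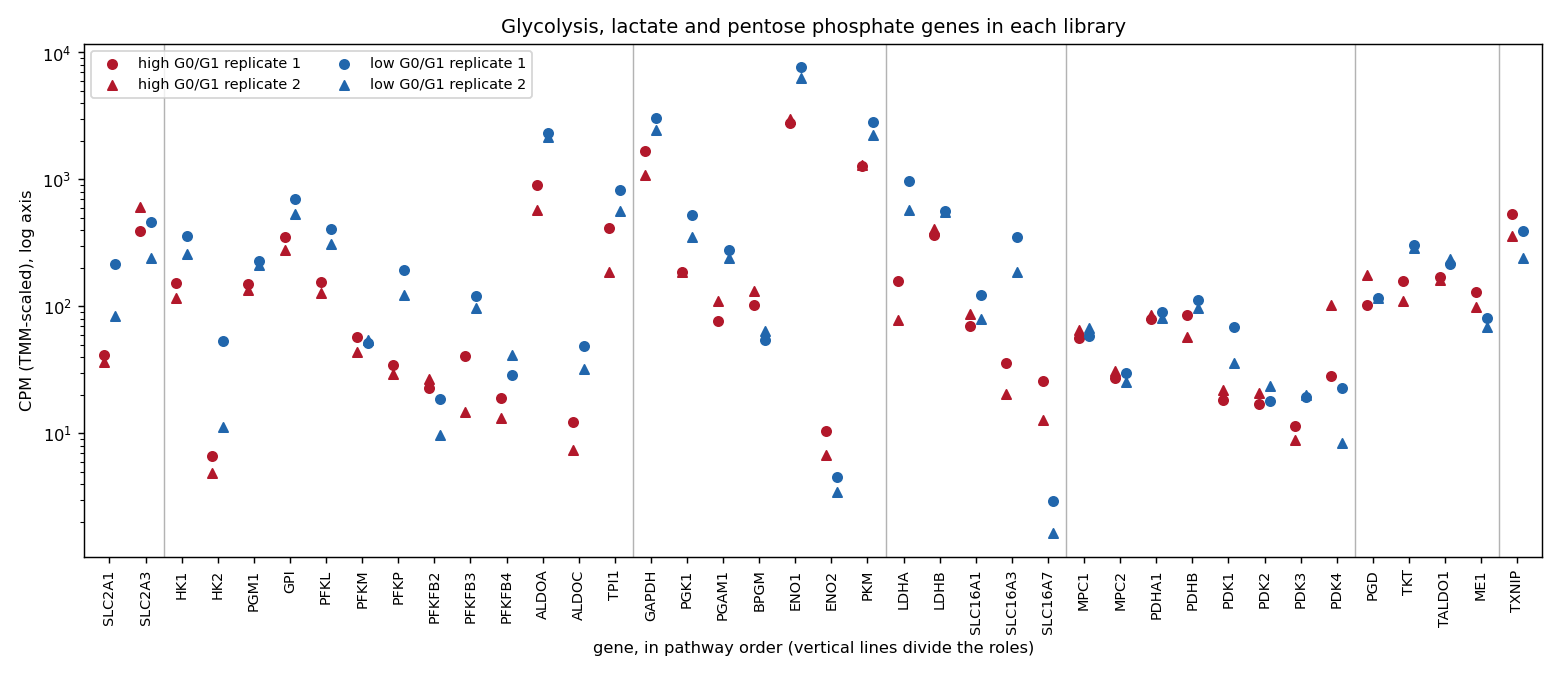
Level of each of the 40 genes in each library, in CPM on a log axis, with genes in pathway order and vertical lines between roles; red marks are high and blue marks low G0/G1 libraries. The red and blue marks do not overlap for 31 genes, with blue above red in 25 of them.

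The carriers that bring glucose into the cell went apart. SLC2A1, the widespread basal carrier GLUT1 (chromosome 6, 168535398 to 168561170 in Sscrofa11.1), stood at 41.2 and 36.7 CPM in high against 218 and 84.2 in low libraries. The groups did not overlap, but the low libraries differed 2.59-fold from each other. The log2 fold change was -1.96 ± 0.48 (SE, edgeR adjusted p = 0.169), and -1.05 without low replicate 1. SLC2A3, the high-affinity carrier GLUT3, stood at 395 and 611 CPM in high against 462 and 242 in low libraries. Its groups overlapped, with a log2 fold change of 0.52 ± 0.40 (edgeR adjusted p = 0.500). It was 1.13 without low replicate 1.

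Upper glycolysis, from hexokinase to the triose phosphates, was lower in 12 of its 13 genes, with a median of -1.20. HK1, which traps glucose in the cell as glucose 6-phosphate, stood at 154 and 116 CPM in high against 359 and 260 in low libraries (log2 fold change -1.20 ± 0.28, edgeR adjusted p = 0.168). HK2, the inducible hexokinase, had 6.64 and 4.85 CPM in the high libraries, 53.8 in low replicate 1 and 11.2 in low replicate 2. The high level of HK2 was therefore in 1 library, although the groups did not overlap. GPI, which isomerises glucose 6-phosphate, had 351 and 279 against 695 and 531 CPM. PGM1, which links glycogen to glucose 6-phosphate, had 151 and 135 against 230 and 212 CPM.

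The 3 phosphofructokinase genes, whose products assemble into the enzyme of the committed step, did not move together. PFKP, the platelet-type subunit (chromosome 10, 67022652 to 67082336), stood at 34.5 and 29.5 CPM in high against 193 and 123 in low libraries. Even the nearest libraries of the 2 groups were 3.57-fold apart, and the log2 fold change was -2.31 ± 0.30 (edgeR adjusted p = 0.125). PFKP had the rank of 51 among all 14352 genes by p. PFKL, the liver-type subunit, had 157 and 127 against 410 and 309 CPM (-1.34 ± 0.26, edgeR adjusted p = 0.151). PFKM, the muscle-type subunit, overlapped between groups at 57.9 and 43.5 against 52.0 and 54.0 CPM.

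The bifunctional PFKFB enzymes set the level of fructose 2,6-bisphosphate, the strongest activator of phosphofructokinase. PFKFB3, the isoenzyme with the highest ratio of kinase to phosphatase activity, stood at 40.4 and 14.8 CPM in high against 121 and 97.5 in low libraries. Its log2 fold change was -1.98 ± 0.50 (edgeR adjusted p = 0.171), and it was -2.89 without high replicate 1. PFKFB4 was also lower in both high libraries, with 18.9 and 13.2 against 29.1 and 41.3 CPM. PFKFB2, which insulin signalling activates in heart, was the only one of the 13 genes that lay higher in both high libraries, at 22.7 and 27.0 against 18.8 and 9.78 CPM.

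Aldolase splits the sugar into a pair of triose phosphates. ALDOA stood at 908 and 575 CPM in high against 2325 and 2157 in low libraries, with a log2 fold change of -1.60 ± 0.31 (edgeR adjusted p = 0.152). ALDOC, the brain-type isoenzyme, had 12.3 and 7.37 against 49.2 and 32.2 CPM (-2.05 ± 0.38, edgeR adjusted p = 0.151). TPI1, which interconverts the triose phosphates, had 416 and 186 against 821 and 565 CPM. In TPI1 the spread between the high libraries, 2.23-fold, exceeded the gap of 1.36-fold between the nearest libraries of the groups.

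Lower glycolysis, which yields ATP, went in both directions. GAPDH, PGK1, PGAM1, ENO1 and PKM were lower in both high libraries, and BPGM and ENO2 were higher in both. GAPDH stood at 1685 and 1077 against 3042 and 2467 CPM, and so the groups did not overlap in this gene, which is often used as a constant reference. PGK1, the first ATP-forming enzyme, had 187 and 187 against 529 and 355 CPM (-1.24 ± 0.27, edgeR adjusted p = 0.162). PGAM1, the mutase that moves the phosphate of 3-phosphoglycerate, had 77.3 and 110 against 279 and 241 CPM (-1.48 ± 0.26, edgeR adjusted p = 0.145).

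ENO1, which forms phosphoenolpyruvate (chromosome 6, 69385879 to 69401664), had 2771 and 2977 CPM in high against 7645 and 6290 in low libraries. Its log2 fold change was -1.28 ± 0.26 (edgeR adjusted p = 0.155). PKM, pyruvate kinase, had 1283 and 1303 against 2830 and 2252 CPM (-0.97 ± 0.25, edgeR adjusted p = 0.171). In ENO1 and PKM the high libraries differed from each other by only 1.07-fold and 1.02-fold.

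The 2 genes of this role with higher levels in high G0/G1 cells were a bypass enzyme and an enolase isoenzyme. BPGM, which makes 2,3-bisphosphoglycerate and bypasses the PGK1 step, stood at 104 and 132 CPM in high against 54.5 and 64.5 in low libraries. Its log2 fold change was 0.99 ± 0.23 (edgeR adjusted p = 0.169). ENO2, the neuronal enolase, stood at 10.4 and 6.74 against 4.55 and 3.43 CPM. BPGM is abundant in red cells, and the erythroid markers HBB and ALAS2 were also higher in both high libraries, while SLC4A1 and AHSP were at 0. Their part in the level of BPGM was not tested.

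**Figure D2:**
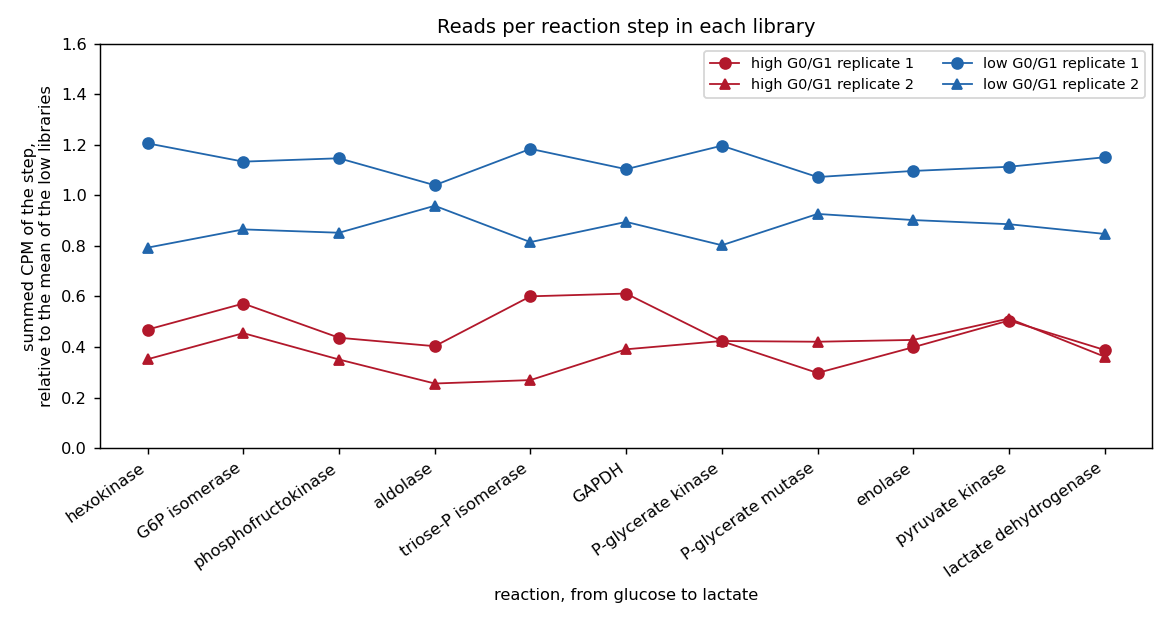
Summed CPM of the genes that catalyse each of 11 reactions from glucose to lactate, in each library, divided by the mean of the low libraries; lines join the reactions of 1 library. Both high libraries lie below both low libraries at each reaction, and the ratio of the mean of the low to that of the high libraries runs from 1.95 to 3.04.

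Summed over isoenzymes, all 11 reactions from glucose to lactate had fewer reads in both high libraries. These sums rest on genes already counted singly above. Of all genes tested, taken singly, 29.8% were lower in both high libraries. The ratio of low to high means was smallest for GPI, at 1.95, and largest for aldolase, at 3.04. LDHB was left out of the shares that follow. The 16 other enzyme genes of this path took 0.811% (95% Wilson interval 0.808 to 0.814) and 0.705% (0.702 to 0.709) of all counts in the high libraries. In the low libraries they took 1.978% (1.973 to 1.982) and 1.705% (1.701 to 1.710). These intervals cover counting error only, and they are far narrower than the spread between libraries of a group. In RNA from many cells, fewer cells with a transcript and less of it per cell cannot be told apart.

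Lactate formation and monocarboxylate transport held the 3 largest log2 fold changes in size among the 40 genes with all 4 libraries, those of SLC16A3, SLC16A7 and LDHA. This order changed in size with other sets of libraries. Without low replicate 2 that of HK2, at -3.22, exceeded those of LDHA, at -3.04, and SLC16A7, at 2.72. Without low replicate 1 that of PDK4, at 3.05, exceeded those of SLC16A3, at -2.65, and LDHA, at -2.23. Without high replicate 1 those of PFKFB3, at -2.89, HK2, at -2.755, PDK4, at 2.71, and ALDOC, at -2.472, exceeded that of SLC16A7, at 2.468. LDHA, the subunit that favours the reduction of pyruvate to lactate (chromosome 2, 40814163 to 40827284), had its nearest libraries 3.66-fold apart, with a log2 fold change of -2.72 ± 0.47 (edgeR adjusted p = 0.142), and -3.32 without high replicate 1. Its levels were 158 and 78.5 CPM in the high and 981 and 578 in the low libraries. LDHB, the subunit that favours the oxidation of lactate, was lower too, but by less. It stood at 363 and 407 against 564 and 559 CPM, with a log2 fold change of -0.54 ± 0.21 (edgeR adjusted p = 0.236). RefSeq's annotation of Sscrofa11.1 gives the symbol LDHB to 2 loci, one of 20287 bases on chromosome 5 and one of 1280 bases on chromosome 2, and the count table has 1 row for it, so which locus its reads came from cannot be told.

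Monocarboxylate carriers move lactate and pyruvate across the cell membrane. SLC16A3, the lactate exporter MCT4 of glycolytic cells (chromosome 12, 796882 to 807480), stood at 36.1 and 20.6 CPM in high against 355 and 186 in low libraries. Its nearest libraries were 5.14-fold apart, and the log2 fold change was -3.25 ± 0.46 (edgeR adjusted p = 0.125), and -2.65 without low replicate 1. SLC16A7, the high-affinity pyruvate carrier MCT2 (chromosome 5, 24713009 to 24871891), showed the reverse. It had 25.9 and 12.8 CPM in high against 2.95 and 1.63 in low libraries, from 771 and 364 counts against 94 and 47. Its log2 fold change was 3.07 ± 0.54 (edgeR adjusted p = 0.144), and 2.47 without high replicate 1. SLC16A1, the widespread carrier MCT1, overlapped between groups at 70.2 and 87.7 against 122 and 80.1 CPM. BSG, the chaperone that brings MCT1 and MCT4 to the membrane, is not among the 40 genes and overlapped as well, at 326 and 382 against 373 and 383 CPM.

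**Figure D3:**
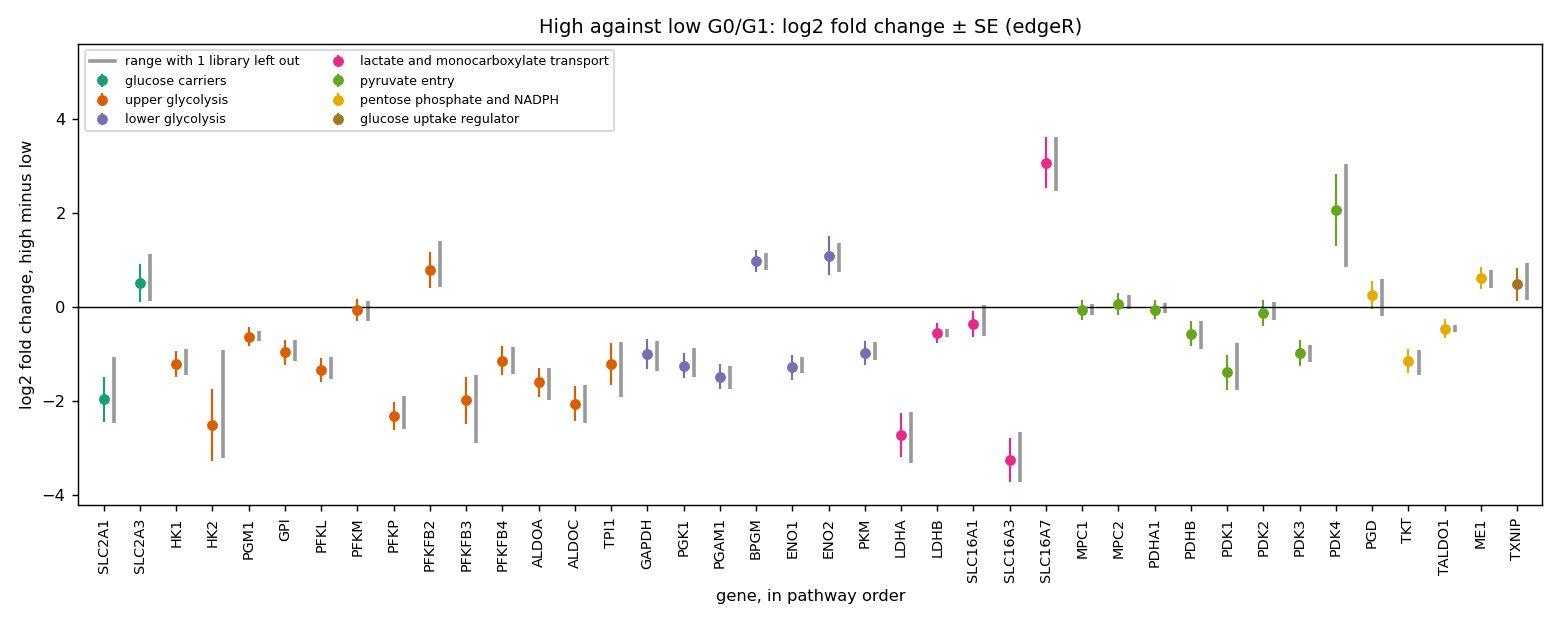
Log2 fold change of high against low G0/G1 for each of the 40 genes in pathway order, with bars of 1 SE from edgeR, coloured by role; grey lines give the range of edgeR values with 1 library left out. SLC16A3 at -3.25 and SLC16A7 at 3.07 are the extremes, and the pyruvate carrier genes MPC1 and MPC2 lie near 0, at -0.05 and 0.07.

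Among the genes of the carrier and the E1 enzyme through which pyruvate enters mitochondrial metabolism, all but PDHB overlapped between groups. MPC1 and MPC2, which form the mitochondrial pyruvate carrier, overlapped between groups, with 56.0 and 65.7 against 58.4 and 67.9 CPM for MPC1 and 27.2 and 31.0 against 30.0 and 25.5 for MPC2. PDHA1, the catalytic alpha subunit of pyruvate dehydrogenase, overlapped as well, at 79.0 and 86.2 against 90.1 and 81.2 CPM. PDHB, its beta subunit, was lower in both high libraries by a narrow gap, at 85.3 and 57.3 against 113 and 97.1 CPM (-0.56 ± 0.27, edgeR adjusted p = 0.300). Summed over PDHA1 and PDHB, the reads were also lower in both high libraries, at 164 and 143 against 203 and 178 CPM. For comparison, LDHA had 2.00 and 0.911 times the reads of PDHA1 in the high libraries and 10.9 and 7.12 times in the low ones.

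The kinases that switch pyruvate dehydrogenase off went in both directions. PDK1, a known HIF-1 target, stood at 18.3 and 22.1 CPM in high against 69.3 and 35.8 in low libraries. PDK3 was lower too, at 11.4 and 8.85 against 19.5 and 20.2 CPM, and PDK2 overlapped at 17.0 and 21.0 against 17.9 and 23.6. PDK4, a known FOXO target that is raised in fasting, stood at 28.2 and 103 CPM in high against 22.9 and 8.36 in low libraries. Its libraries differed 3.67-fold within the high group and 2.74-fold within the low group, and the high value was in high replicate 2.

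The pentose phosphate pathway showed no common direction. TKT, transketolase of the non-oxidative branch, stood at 158 and 110 CPM in high against 303 and 287 in low libraries, with a log2 fold change of -1.14 ± 0.26 (edgeR adjusted p = 0.166). TALDO1, transaldolase of the same branch, had 171 and 160 against 217 and 238 CPM. PGD, which makes NADPH in the oxidative branch, overlapped, with 103 and 177 against 117 and 117 CPM. ME1, the cytosolic malic enzyme that also makes NADPH, was higher in both high libraries, at 130 and 99.6 against 81.0 and 69.0 CPM.

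TXNIP (chromosome 4, 99348589 to 99351760), which glucose induces and which removes glucose carriers from the membrane, overlapped between groups. It stood at 534 and 356 CPM in high against 393 and 240 in low libraries, with a log2 fold change of 0.49 ± 0.35 (edgeR adjusted p = 0.457). ARRDC4, a related arrestin gene that is induced by the same glucose-sensing factors, had 185 and 167 against 549 and 341 CPM. Its log2 fold change was -1.34 ± 0.30 (edgeR adjusted p = 0.163). MLXIP, a gene of these factors, stood at 94.5 and 123 against 80.8 and 66.3 CPM.

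At several steps the mix of isoenzymes did not overlap between the groups. Shares here are of the reads of a set of related genes, with no correction for length, so they compare libraries only. LDHA took 30.4% and 16.2% of lactate dehydrogenase reads in high against 63.5% and 50.9% in low libraries. PFKP took 13.8% and 14.8% against 29.5% and 25.3% of phosphofructokinase reads, and PFKM 23.24% and 21.73% against 7.93% and 11.11%. The share of PFKL overlapped, between 62.5% and 63.6% in all 4 libraries.

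Carriers and regulatory enzymes showed shifts of this kind as well. SLC2A1 took 9.44% and 5.66% of the reads of the 2 glucose carriers in high against 32.0% and 25.9% in low libraries. SLC16A3 took 27.3% and 17.0% of monocarboxylate carrier reads against 73.9% and 69.4%, and SLC16A7 took 19.6% and 10.6% against 0.614% and 0.609%. PDK4 took 37.6% and 66.6% of kinase reads against 17.7% and 9.50%, and PFKFB3 took 49.3% and 26.9% against 71.7% and 65.6%. Summed reads of the 2 glucose carriers and of the 4 kinases overlapped between groups, so in these sets the mix differed more than the sum. HK2 took 13.0% of hexokinase reads in low replicate 1 and 4.02% to 4.13% in the other 3 libraries. With 2 libraries against 2, a two-sided exact permutation test cannot give a p below 0.333, and it gave that value for LDHA, PFKP, PFKM, SLC2A1, SLC16A3, SLC16A7, PFKFB3 and PDK4.

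**Figure D4:**
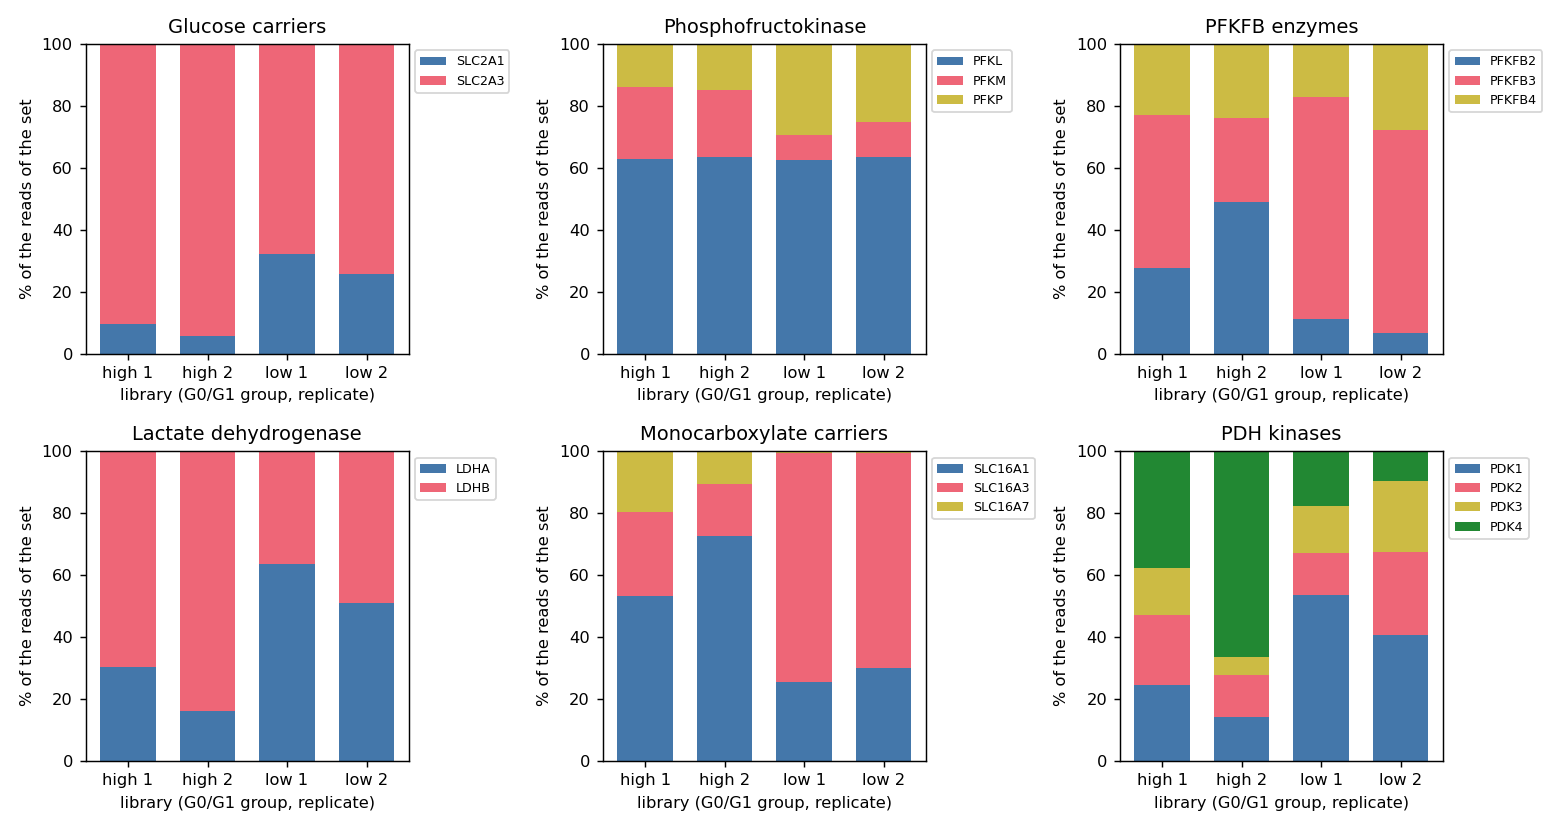
Share of each gene in the reads of its set, in percent, for 6 sets and the 4 libraries, with no correction for gene length. LDHA, SLC2A1, SLC16A3, PFKP and PFKFB3 take a larger share in both low libraries, and PDK4 and SLC16A7 in both high libraries.

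The libraries of a group also differed from each other. Of the 25 genes lower in both high libraries, 22 were highest in low replicate 1 and 19 were lowest in high replicate 2. Across all 40 genes, the mean log2 level relative to the mean of the 4 libraries was -0.24 and -0.42 in high replicates 1 and 2, and 0.54 and 0.12 in low replicates 1 and 2. Low replicate 1, with the highest levels of these genes, had the lowest summed level of the fibroblast and smooth muscle markers. Whether these levels are linked was not tested.

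Among 73 further genes of carbohydrate metabolism, none of them among the 40, 60 were tested. Of these, 45 had a negative log2 fold change, with a median of -0.31. Both high libraries lay below both low ones in 27 and above in 6, against 29.8% and 26.8% of all genes. By edgeR 0 passed after adjustment, and 9 lower and 3 higher had an unadjusted p under 0.05, against 10.8% and 9.92% of all genes. DESeq2 called 4 lower and 2 higher, against 5.03% and 5.36%. PC, pyruvate carboxylase, had 33.1 and 21.2 CPM in high against 60.3 and 74.6 in low libraries. PRPS1, which makes phosphoribosyl pyrophosphate from ribose 5-phosphate, had 42.5 and 34.5 against 84.8 and 71.3 CPM. RPIA, the isomerase that forms ribose 5-phosphate, showed the reverse, at 193 and 421 against 128 and 75.0 CPM. SLC2A13, a carrier of myo-inositol, was also higher in both high libraries, at 27.4 and 33.8 against 15.7 and 12.9 CPM.

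A list of hypoxia-induced genes without a glycolytic role was evenly divided in direction, but many of its genes differed between the groups. Of its 20 genes 10 had a negative and 10 a positive log2 fold change, with a median of -0.04. The groups did not overlap in 6 downwards and 7 upwards, against 29.8% and 26.8% of all genes. By edgeR 0 passed after adjustment, and 5 lower and 5 higher had an unadjusted p under 0.05, against 10.8% and 9.92% of all genes. DESeq2 called 5 lower and 4 higher, against 5.03% and 5.36%. P4HA2, a collagen prolyl hydroxylase, stood at 50.8 and 53.9 against 213 and 139 CPM, and BNIP3, a mitophagy receptor, at 74.2 and 98.4 against 239 and 189. MXI1, a transcriptional repressor, lay the other way at 34.7 and 74.4 against 17.5 and 15.5 CPM. HIF1A, the oxygen-regulated subunit of HIF-1, which was singled out after its values were seen, overlapped at 1237 and 771 against 988 and 679 CPM. FOXO1, a transcription factor that insulin signalling restrains, was at 1422 and 1407 CPM in high against 482 and 667 in low libraries. In the TCA cycle, which burns the products of pyruvate, 13 of 16 genes had a negative log2 fold change, but the median was only -0.21, and the groups did not overlap in 11 downwards and 1 upwards, against the same 29.8% and 26.8%.

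**Figure D5:**
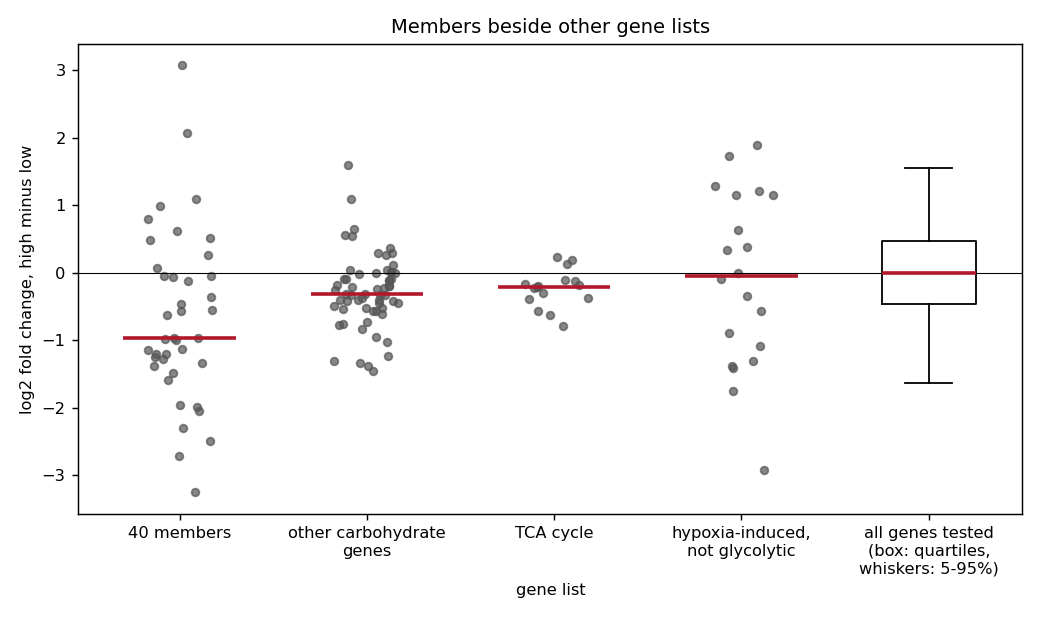
Log2 fold change of high against low G0/G1 for the 40 genes and for 3 other lists, each point a tested gene and each red line a median, beside a box of all 14352 genes tested. The medians are -0.96 for the 40 genes, -0.31 for other carbohydrate genes, -0.21 for the TCA cycle and -0.04 for hypoxia-induced genes without a glycolytic role.

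Glycolytic genes have many processed pseudogene copies in mammals. How reads were counted is not given in the sources used here, and reads that fit near-identical copies of GAPDH, ENO1, PKM, PGK1, PGAM1, TPI1 or LDHA may have been split or dropped, so their levels are uncertain to that extent.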

How the data were processed

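The authors deposited 1 table of read counts per gene symbol for 4 libraries, and its columns were matched to samples by title. The counts were assumed to be raw. Total RNA was extracted with Trizol, per the labels' protocols. The submitters' processing notes name the aligner HISAT2 and the pig assembly Sscrofa11.1. Which counter, annotation release and strand setting were used is not given in the sources used here.

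High was compared with low G0/G1 with edgeR 4.0.16 in R 4.3.3 over the whole table: filterByExpr (minimum count 10, minimum total 15), TMM scaling, glmQLFit and glmQLFTest, no covariate, and Benjamini-Hochberg adjustment over 14352 genes. Calls were made at an adjusted p under 0.05. The fit had 2 residual degrees of freedom, 3.2 prior ones and a common biological coefficient of variation of 0.371. A negative log2 fold change means a lower level in high G0/G1, and its size divided by the root of F gave the SE. Log2 levels use a prior count of 2. The tests were tested on simulated data.

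Alternatives were DESeq2 1.42.0, limma 3.58.1 (voom), other scalings and filters, and leaving out each library. DESeq2 with a library left out was added after seeing the data. Replicate numbers follow listing order. The genes and lists were chosen with earlier results of these data known. Fold changes with SE are given for the 16 of the 40 genes with the smallest p. They are also given for the gene of each role with the most reads, for TXNIP, and for ARRDC4 from outside the 40. From each other list up to 4 genes with the smallest p are named. Coordinates come from RefSeq's annotation of Sscrofa11.1, in which all 40 symbols were found. No sequence is shown, and 1 marker gene is not reported here.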

Additional observations from a re-analysis of the deposited data

How the results depend on the processing

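The median log2 fold change of the 40 genes ran from -1.0 to -0.94 under the other tests, scalings and filters, and from -1.06 to -0.70 with 1 library left out, where the lone library of a group is assumed to vary like the other group. With DESeq2 754 genes were called higher and 708 lower over the table, and 3 and 18 of the 40. With no filter on low counts edgeR called 2 higher and 3 lower over the table and 0 of the 40. With limma-voom, other scalings and the stricter filter no gene of the 40 was called. With 1 library left out, in edgeR or DESeq2, the table's calls ranged from 0 to 953 higher and 0 to 1271 lower, and those of the 40 from 0 to 3 and 0 to 18. edgeR made calls only without high replicate 1: 363 higher and 591 lower, among them 6 of the 40, which were ALDOA, ALDOC, LDHA, PFKFB3, PFKP and SLC16A3. In the fits with 1 library left out, the 40 genes were also counted at an unadjusted p under 0.05. These counts ranged from 2 to 5 higher and from 12 to 22 lower, against 5 and 23 in edgeR with all libraries. Shares of all genes at this cutoff are not given for these fits, so the counts cannot be set against the whole table.

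The direction turned for genes near 0 when a library was left out: PFKM (-0.29 to 0.15), SLC16A1 (-0.66 to 0.046), MPC1 (-0.17 to 0.080), MPC2 (-0.069 to 0.26), PDHA1 (-0.15 to 0.090), PDK2 (-0.28 to 0.11) and PGD (-0.18 to 0.62). Values that moved over 1.5-fold and are not given above were HK2 (-2.50; -0.90 without low replicate 1 and -3.22 without low replicate 2), PDK1 (-1.38; -0.76 without low replicate 1), PDK4 (2.07; 0.85 without high replicate 2, 2.71 without high replicate 1 and 3.05 without low replicate 1), TPI1 (-1.20; -1.90 without high replicate 1) and PFKFB2 (0.80; 1.41 without low replicate 1). The cause was not tested. The difference in share of lactate dehydrogenase reads taken by LDHA ranged from -41.0 to -26.8 percentage points, and that of HK2 among hexokinase reads from -8.93 to -0.04. Shares per coding length were not run, for want of a length table. No paired analysis was possible because the labels give no replicate numbers and do not say what the codes in the titles mean. The codes of 1 high and 1 low library begin with the same letter, and whether libraries of the 2 groups share an origin was not tested. The lowest count of the 40 genes was 47, for SLC16A7 in low replicate 2.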

Other observations

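Genes that store glucose as glycogen or make it anew are given here as values. Of 11 glycogen genes tested, 8 had a negative log2 fold change, with a median of -0.12, and the groups overlapped in 7. Both high libraries lay below both low ones in 3 and above in 1, against 29.8% and 26.8% of all genes. PYGL, the liver glycogen phosphorylase, stood at 161 and 156 CPM in high against 181 and 218 in low libraries. PGM3, which serves the synthesis of amino sugars, was higher in both high libraries, at 42.9 and 50.0 against 31.3 and 27.7 CPM. PCK2, the mitochondrial enzyme that makes phosphoenolpyruvate, stood at 11.0 and 5.65 against 22.7 and 23.1 CPM.

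The malate-aspartate shuttle carries the reducing equivalents of cytosolic NADH into mitochondria. All 7 of its genes tested had a negative log2 fold change, against 50.6% of all genes, with a median of -0.40. The value nearest 0 was -0.02, and for that gene DESeq2 gave 0.0010. With 1 library left out some of the 7 turned positive in edgeR, up to 0.11. In 4 of the 7 both high libraries lay below both low libraries, against 29.8% of all genes. SLC25A11, the malate carrier, stood at 59.5 and 39.7 CPM in high against 101 and 92.2 in low libraries. GOT2, the mitochondrial aspartate aminotransferase, stood at 252 and 180 against 284 and 288 CPM. By edgeR's quasi-likelihood test 0 of the 7 passed after adjustment and 2 were under 0.05 before it (10.8% of all genes were, in this direction), and DESeq2 called 0.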
